A study of Mus musculus with 12 samples.

Results

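Germinal centre (GC) B cells of autoimmune-prone mice that lack the type I interferon receptor chain Ifnar1 were compared with GC B cells of the same background that carry it. The 6 libraries, of 12 in the series, were taken by their labels: 3 came from B6.Sle1b mice and 3 from B6.Sle1b.IFNaR1-/- mice. They form 3 pairs, 1 in each of the batches named in the deposited tables. Both groups were sorted from spleen as live B220+GL7+CD95+ cells from female mice 6 months old, and both carry the lupus-associated Sle1b interval on C57BL/6. The knockout is not limited to B cells by its name, so T cells and myeloid cells of these animals carry it too. The libraries are called Sle1b and Ifnar1KO below. The other 6 libraries, 3 for each genotype, hold B220+GL7-CD95- non-GC B cells and serve here as the companion population. The labels do not state whether replicates came from separate animals or from pools, so a p-value here reflects library-to-library spread, part of which may be technical.

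Germinal centres are the sites where activated B cells divide, mutate their antibody genes and are selected with T cell help. In Sle1b mice they form without deliberate immunisation and can hold self-reactive B cells. Type I interferons bind a receptor made of the Ifnar1 and Ifnar2 chains, which activates the kinases Tyk2 and Jak1. These phosphorylate STAT proteins, Stat2 among them, which join Irf9 to form a complex that binds the interferon-stimulated response element in the promoters of interferon-stimulated genes. Many of those genes encode antiviral enzymes and sensors of foreign nucleic acid.

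The core of that element, GAAANNGAAA on either strand (TTTCNNTTTC on the opposite strand), was searched for from 250 bases before to 50 bases after each start site in the RefSeq promoter table for GRCm38.p6. It was found in 3.44% of 32851 promoters, and in 25 of the 60 promoters (41.7%) of listed type I interferon-stimulated genes. Counted by gene rather than by promoter, 49 of the 65 genes in that list had an entry in the table and 22 of those held the core. The promoters of 4 genes follow because these were the listed genes with the core whose fitted difference between genotypes in GC cells was most negative. Each sequence covers 250 bases before and 30 bases after the start site, written 5′ to 3′ on the strand of the gene, with the core in capitals. Eif2ak2 encodes the RNA-activated kinase PKR (chr17:78882543-78882822, minus strand), Trim30d and Trim30a are neighbouring TRIM-family genes (chr7:104507820-104508099 and chr7:104465164-104465443, minus strand), and Stat2 encodes a part of the interferon complex itself (chr10:128270248-128270527, plus strand).
Eif2ak2: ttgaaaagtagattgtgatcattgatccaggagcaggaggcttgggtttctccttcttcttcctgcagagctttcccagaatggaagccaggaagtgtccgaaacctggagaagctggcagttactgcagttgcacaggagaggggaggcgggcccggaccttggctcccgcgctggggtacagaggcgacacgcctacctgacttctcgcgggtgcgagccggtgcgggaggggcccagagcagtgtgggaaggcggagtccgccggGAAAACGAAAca
Trim30d: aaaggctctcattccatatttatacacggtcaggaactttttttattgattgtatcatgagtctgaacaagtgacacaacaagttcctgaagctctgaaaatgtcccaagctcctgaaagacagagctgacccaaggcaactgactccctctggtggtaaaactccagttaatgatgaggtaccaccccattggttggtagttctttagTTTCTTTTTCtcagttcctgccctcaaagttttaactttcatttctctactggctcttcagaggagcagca
Trim30a: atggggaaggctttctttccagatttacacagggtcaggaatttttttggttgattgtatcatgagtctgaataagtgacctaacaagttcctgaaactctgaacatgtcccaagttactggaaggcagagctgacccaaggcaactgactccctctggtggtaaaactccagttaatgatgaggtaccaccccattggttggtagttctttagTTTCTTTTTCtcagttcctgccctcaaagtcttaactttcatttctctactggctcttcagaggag
Stat2: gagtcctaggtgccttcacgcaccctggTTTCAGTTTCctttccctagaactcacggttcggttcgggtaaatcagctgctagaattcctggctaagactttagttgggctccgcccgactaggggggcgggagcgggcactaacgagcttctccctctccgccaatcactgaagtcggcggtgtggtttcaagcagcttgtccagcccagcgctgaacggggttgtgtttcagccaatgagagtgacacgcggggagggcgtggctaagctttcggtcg

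The core lay 18 bases after the start in Eif2ak2, 41 and 36 bases before it in Trim30d and Trim30a, and 222 bases before it in Stat2. The Trim30d and Trim30a promoters resemble each other closely. Whether reads of the transcripts were split between these genes was not tested. Of the listed genes with the core, 12 were tested in GC cells and 3 of them were lower in all 3 batches, against 9 of the 20 tested genes whose promoter entry lacked it. Tested genes of the list without a promoter entry are in neither count. Of the whole list, 15 of 43 tested (34.9%) were lower in all 3 batches, beside 16.2% of all genes tested. A match describes the letters in this window only. Isg20, the listed gene with the most negative fitted difference, has no such core in its entries and is not shown.

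The pairs differed in quality, and the third stood apart. Items with at least 1 FPKM (fragments per kilobase of transcript, scaled to the size of the library) numbered 10206, 11266 and 9423 in the Sle1b GC libraries of batches 1, 2 and 3, against 9216, 10863 and 5604 in the Ifnar1KO GC libraries. The Ifnar1KO library thus had fewer detected genes in every pair, and fewest in batch 3, where 5339 of the 10108 genes tested were listed at 0. The smallest steps between low values showed that 1 FPKM over 1 kb of effective length was worth 2.54 to 6.64 reads in the 6 GC libraries. An exact 0 therefore says only that a gene was listed at 0. Each batch was normalised separately by the authors, so differences were taken within a batch, and levels are set side by side across batches as a description only.

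Ifnar1 itself, on chr16:91485238-91507441, did not follow its label. It was listed at 5.95, 9.40 and 7.79 FPKM in the Sle1b GC libraries of batches 1, 2 and 3, and at 9.63, 15.1 and 0 FPKM in those labelled Ifnar1KO. The Ifnar1KO value was the higher one in batches 1 and 2 and was 0 in batch 3, so the groups overlapped. The fitted log2 difference was -0.63 (SE 0.84, n = 3 pairs), and it turned to 0.62 when batch 3 was left out. The non-GC libraries gave 22.7, 38.0 and 3.01 FPKM for Sle1b against 70.8, 70.6 and 2.27 FPKM for Ifnar1KO. The FPKM covers the whole locus, and a knockout that removes part of a gene can leave its other exons transcribed, so these values do not check the genotype. Wherever a direction is given below, it refers to the libraries labelled Ifnar1KO.

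The sort was checked against markers of GC B cells. Bcl6, the transcription factor that defines them, was listed at 88.6, 147 and 1.11 FPKM in Sle1b and 52.3, 127 and 0.302 FPKM in Ifnar1KO. S1pr2, the receptor that confines B cells to the follicle, stood at 20.5, 39.5 and 2.24 FPKM against 9.0, 21.7 and 0 FPKM, while its non-GC values in batches 1 and 2 did not exceed 0.270 FPKM. Both were present in both genotypes in batches 1 and 2 and low or listed at 0 in batch 3. Fas, the CD95 antigen of the gate, did not follow them, with 9.74, 55.1 and 5.5 FPKM in Sle1b and 9.52, 76.3 and 12.6 FPKM in Ifnar1KO. A general B cell gene was low in batch 3 too: Ms4a1, which encodes the B cell antigen CD20, was listed at 0.545 and 0.380 FPKM in the batch 3 pair against 39.2 to 201 FPKM in the other 4 GC libraries. The identity of the batch 3 cells is not shown by these markers, and the counts of the gene lists are also given for batches 1 and 2 alone.

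**Figure D1:**
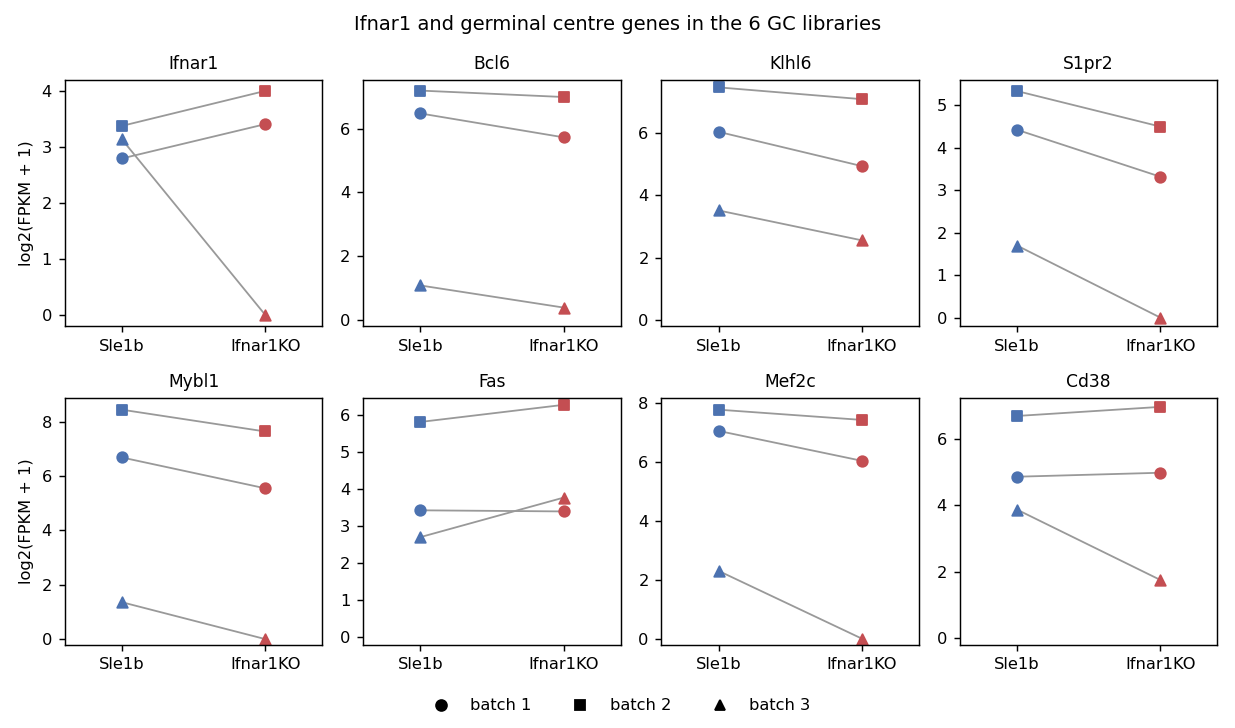
Level of Ifnar1 and of 7 germinal centre genes, as log2(FPKM + 1), in the Sle1b (blue) and Ifnar1KO (red) GC libraries, with a grey line joining the libraries of a batch. Ifnar1 is higher in Ifnar1KO in batches 1 and 2 and listed at 0 in batch 3, and the batch 3 libraries (triangles) lie lowest for Bcl6, S1pr2, Mybl1 and Mef2c.

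Markers of other cells differed between the GC libraries. Of 18 myeloid markers, 16, 8 and 6 were above 0 in the Sle1b libraries of batches 1, 2 and 3 and 10, 7 and 1 in the Ifnar1KO libraries, with summed levels of 17.7 to 175 FPKM against 0.0786 to 60.3 FPKM. The Sle1b library of batch 1 held 20.8 FPKM of the macrophage lysozyme Lyz2, against 4.12 FPKM in its Ifnar1KO partner, and Lyz2 was listed at 0 in the other GC libraries except the Ifnar1KO library of batch 2, which held 2.14 FPKM. Of 10 natural killer and cytotoxic markers, 6 were above 0 in that same Sle1b library and at most 2 in any other GC library. Summed T cell markers ranged from 85.1 to 148 FPKM in Sle1b and from 37.6 to 79.1 FPKM in Ifnar1KO. Cd3e, the T cell receptor subunit, was between 0 and 6.53 FPKM in all 6 libraries. The part these cells play in the differences below was not tested. In sorted bulk cells, fewer cells of a type and less RNA per cell cannot be told apart.

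Across all genes, no difference between genotypes in GC cells passed the test. Of 10108 genes tested, 0 (0%) had an adjusted p under 0.05 in limma with Benjamini-Hochberg adjustment, and the smallest adjusted p was 0.832. An unadjusted p under 0.05 in limma was reached by 529 of the 10108 genes. That is close to the share of 0.05 that would pass if no gene differed. What follows therefore describes values and directions. Genes lower in Ifnar1KO in all 3 batches made up 16.2% of those tested, and genes higher in all 3 made up 3.67%. These shares are the background against which each list is set, and they were unequal as the detected gene counts were. The median log2 difference of all genes tested was -0.28, -0.10 and -0.06 in batches 1, 2 and 3. Centring each batch on that median changed the shares to 12.2% lower and 12.1% higher. The 3 pairs shared little gene by gene. Across the 10108 genes, which are not independent replicates, the differences of 1 batch correlated with those of another at r between -0.015 and 0.008.

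Type I interferon-stimulated genes were the list most often lower in the Ifnar1KO GC libraries. Of 65 items, 43 passed the level filter, and 15 of those (34.9%) were lower in all 3 batches while 0 were higher in all 3. The background shares were 16.2% and 3.67%. The median of the 43 was -1.03, -0.75 and -0.29 on the log2(FPKM + 1) scale in batches 1, 2 and 3, against -0.28, -0.10 and -0.06 for all genes tested. Batches 1 and 2 alone, with the filter redone, placed 31 of 47 listed genes (66%) lower in both, against 32.8% of all genes, and 2 higher in both, against 16.4%. With no filter, 15 of 64 (23.4%) were lower in all 3 batches, against 8.67% of all genes. Only 2 of the 43 had passed the filter through the Sle1b libraries alone. After centring, 13 were lower in all 3 batches and 3 were higher.

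Isg20, an RNA exonuclease with antiviral activity, showed the most negative fitted difference of the list. On chr7:78913424-78920362, it was listed at 12.5, 24.5 and 6.50 FPKM in the Sle1b GC libraries and at 0, 2.33 and 0 FPKM in the Ifnar1KO GC libraries. Every Sle1b value lay above every Ifnar1KO value. The fitted log2 difference was -3.20 (SE 0.63, n = 3 pairs, limma adjusted p = 0.832). Leaving out batch 3 gave -3.35 with an adjusted p of 0.0404 in limma, a call that was lost when the filter was also redone on batches 1 and 2.

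The 2′-5′ oligoadenylate synthetase family, whose active members make the activator of RNase L when they meet double-stranded RNA, had low values apart from Oas1b. Whether Oas1b has this activity in these mice was not tested. Oas1b stood at 22, 56.3 and 8.88 FPKM in Sle1b and 0, 29.7 and 0 FPKM in Ifnar1KO. It was lower in every pair, although the batch 2 Ifnar1KO library exceeded the batch 1 and batch 3 Sle1b libraries. Its fitted log2 difference was -2.91 (SE 0.78, limma adjusted p = 0.894). Oasl2 stood at 1.96, 2.40 and 4.83 FPKM in Sle1b against 0, 0.844 and 0 FPKM in Ifnar1KO. Oas3 went from 4.99, 0.984 and 1.16 FPKM to 0.265, 0 and 3.67 FPKM, so batch 3 ran the other way.

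Sensors and regulators of the response followed. Zbp1, a sensor of Z-form nucleic acid, stood at 10.2, 14.9 and 0.836 FPKM in Sle1b and 1.23, 0.655 and 0 FPKM in Ifnar1KO. The pairs of batches 1 and 2 were far apart, and the batch 3 values were both below 1 FPKM. Ifi35, an interferon-induced leucine zipper protein, stood at 4.07, 1.70 and 4.20 FPKM against 0.177, 0 and 0 FPKM. Isg20, Oasl2 and Ifi35 were the members whose groups did not overlap, and such a separation towards lower values was seen in 2.62% of all genes tested. Oasl2 and Ifi35 reached 1 FPKM in the Sle1b libraries alone, so the level filter fixes their separation, as it does for 87 of the genes tested in all. Usp18, the protease that removes Isg15 and restrains receptor signalling, stood at 2.2, 18.7 and 0 FPKM against 0, 2.2 and 0 FPKM. Eif2ak2, whose promoter is shown above, stood at 5.53, 18.6 and 0 FPKM against 1.75, 1.13 and 0 FPKM. Both were lower in batches 1 and 2 and listed at 0 in both batch 3 libraries.

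The remaining members lower in all 3 batches were Irf7, Ddx60, Herc6, Trim25, Trim30d, Sp100, Stat2, Lgals3bp, Epsti1 and Tor3a, with fitted differences between -0.49 and -1.39. Their values in a pair were often close: Sp100, a nuclear body protein, stood at 74.2, 169 and 5.76 FPKM in Sle1b and 35.8, 118 and 3.61 FPKM in Ifnar1KO. Ly6e and Pml were abundant, and their pairs in batches 1 and 2 lay close together: Ly6e stood at 228, 195 and 4.87 FPKM against 194, 241 and 2.27 FPKM. Apobec3, a restriction factor of retroviruses, stood at 67.7, 125 and 0.254 FPKM against 37.8, 75.0 and 2.26 FPKM, lower in batches 1 and 2 and higher in batch 3. Parp14, an ADP-ribosyltransferase, went the other way, with 2.77, 17.0 and 1.89 FPKM in Sle1b and 12.3, 14.5 and 18.3 FPKM in Ifnar1KO. Its fitted difference was 1.45 (SE 0.72).

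Of the 22 listed genes that did not pass the filter, 11 were listed at 0 in all 3 Ifnar1KO GC libraries and above 0 in at least 1 Sle1b GC library, and 1 showed the reverse. The same patterns held 5158 and 2307 of the 33505 untested items. However, 20327 of those items were listed at 0 in all 6 GC libraries, as was only 1 of the 22 listed genes. Items at 0 throughout can show neither pattern, so the shares are not directly comparable. The 11 were Bst2, Cmpk2, Ifi27l2a, Ifit1, Isg15, Mx1, Mx2, Oas1a, Oas1g, Oasl1 and Parp12. Ifi27l2a had the highest of these values, 7.12 and 7.4 FPKM in the Sle1b libraries of batches 1 and 2. Ifit2 was higher in Ifnar1KO in every pair, with 0.0581, 0.320 and 0 FPKM in Sle1b and 0.743, 4.17 and 0.887 FPKM in Ifnar1KO, and Ifi44 and Phf11d were each higher in 2 of the 3 pairs. Counting all 65, members above 0 numbered 56, 57 and 38 in Sle1b and 41, 43 and 31 in Ifnar1KO. Over all named items the counts above 0 were 14867, 13893 and 13063 in Sle1b and 12200, 13523 and 8093 in Ifnar1KO. Fewer items were thus above 0 in Ifnar1KO in every pair, whatever the list.

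**Figure D2:**
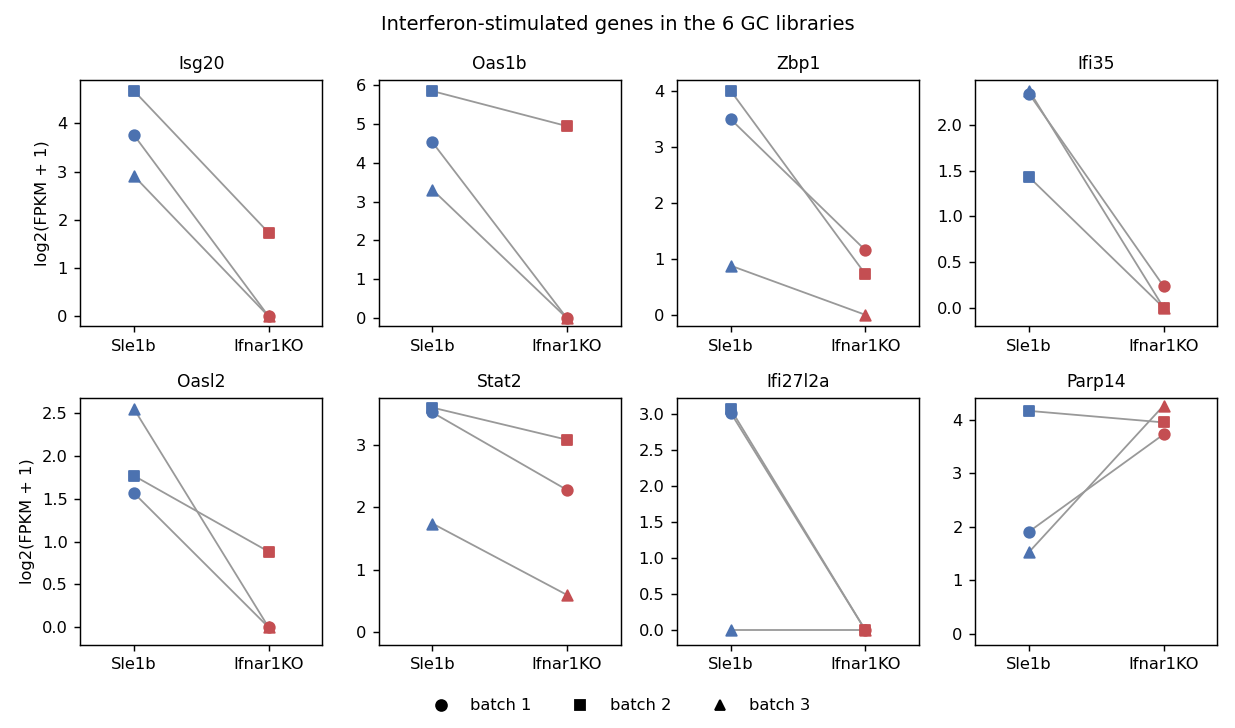
Level of 8 interferon-stimulated genes, as log2(FPKM + 1), in the Sle1b (blue) and Ifnar1KO (red) GC libraries, with a grey line joining the libraries of a batch. Isg20 is lower in Ifnar1KO with no overlap between groups, Ifi35 and Oasl2 stay under 1 FPKM in every Ifnar1KO library, Ifi27l2a is listed at 0 in all 3 Ifnar1KO libraries, and Parp14 is higher in Ifnar1KO in batches 1 and 3.

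Genes linked to interferon-gamma and to class I antigen presentation were also mostly lower in value, with 15 of 21 and 16 of 19 fitted below 0, as were 6583 of all 10108 genes. Of 21 tested interferon-gamma-associated genes 4 (19%) were lower in all 3 batches, as were 5 of 19 class I genes (26.3%). In either list 0 were higher in all 3, and all genes tested had 16.2% lower and 3.67% higher. Nlrc5, the transactivator of class I genes, stood at 26.5, 63.6 and 9.03 FPKM in Sle1b against 7.19, 52.9 and 0 FPKM in Ifnar1KO. Psmb9, a subunit of the immunoproteasome, stood at 35.8, 56.1 and 3.25 FPKM against 5.55, 39.1 and 0 FPKM. Both overlapped between groups because batch 2 was high in each genotype. Both lists hold Nlrc5, Psmb9 and Tap1, so their counts are not separate. In batches 1 and 2 alone, 9 of 24 interferon-gamma-associated genes (37.5%) and 12 of 19 class I genes (63.2%) were lower in both, beside 32.8% of all genes.

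Among receptor and signalling genes, 3 of 14 tested (21.4%) were lower in all 3 batches and 1 (7.14%) was higher. All genes tested had 16.2% and 3.67%. Tyk2, the kinase bound to Ifnar1, stood at 10.1, 12.7 and 10.8 FPKM in Sle1b and 4.65, 2.85 and 1.86 FPKM in Ifnar1KO, with no overlap between groups. Its fitted log2 difference was -1.62 (SE 0.62, limma adjusted p = 0.894). A separation of the groups towards lower values was seen in 2.62% of all genes tested. Tyk2 in non-GC cells was 11.3, 8.34 and 0 FPKM against 10.5, 11.7 and 6.96 FPKM. Stat2 stood at 10.5, 11.1 and 2.34 FPKM against 3.85, 7.47 and 0.510 FPKM, and Ifngr1, the ligand-binding chain of the interferon-gamma receptor, at 7.86, 6.95 and 0.805 FPKM against 5.13, 1.97 and 0 FPKM. Stat3, a target of several cytokine receptors, was the gene higher in all 3 batches, with 5.70, 34.2 and 2.17 FPKM against 25.3, 44.4 and 2.52 FPKM. Ifnar2 shares its entry with Il10rb and Gm21970 and cannot be read alone.

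Of 9 interferon regulatory factors tested, 1 (11.1%), Irf7, was lower in all 3 batches and 0 were higher. All genes tested had 16.2% and 3.67%. Irf7, which amplifies interferon production, stood at 10.6, 4.45 and 2.40 FPKM in Sle1b and 10.4, 0.446 and 0 FPKM in Ifnar1KO. The batch 1 pair was nearly equal. Irf5, which acts downstream of Toll-like receptors, stood at 16.7, 15.5 and 0 FPKM against 5.93, 5.22 and 0 FPKM. Irf4, needed for plasma cell fate, stood at 17.1, 31.6 and 0.316 FPKM against 11.4, 41.1 and 0.556 FPKM, with the pairs pointing in different directions.

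Germinal centre genes were lower in all 3 batches in 8 of 32 tested cases (25%), with 0 higher, against background shares of 16.2% and 3.67%. The 8 were Bcl6, S1pr2, Mybl1, Mef2c, Foxo1, Pou2af1, Klhl6 and Lpp. Mybl1, a transcription factor of dividing GC B cells, stood at 102, 348 and 1.56 FPKM in Sle1b and 45.9, 199 and 0 FPKM in Ifnar1KO. S1pr2, with the values given above, had a fitted log2 difference of -1.21 (SE 0.61). Mef2c, which acts downstream of the B cell receptor, stood at 133, 220 and 3.93 FPKM against 65.1, 172 and 0 FPKM. The values overlapped between groups for each of the 8. The median of the list was -0.61, -0.27 and -0.01 in batches 1, 2 and 3, and in batches 1 and 2 alone 16 of 33 genes (48.5%) were lower in both and 3 higher, beside 32.8% and 16.4% of all genes.

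Dark zone genes, which accompany division, were lower in all 3 batches in 2 of 14 cases and higher in 1, and light zone genes, which accompany selection, in 4 of 22 and 1. Cd86, a costimulatory ligand of light zone cells, stood at 35.9, 64.0 and 49.8 FPKM in Sle1b and 34.2, 34 and 8.92 FPKM in Ifnar1KO. Its Ifnar1KO values all lay below the Sle1b values, although the batch 1 pair was nearly equal. Of 48 cell cycle genes, 6 (12.5%) were lower in all 3 batches and 1 was higher, shares below the background of 16.2% and 3.67%. Aurkb, a mitotic kinase, stood at 33.4, 36.0 and 13.0 FPKM against 4.70, 19.8 and 0 FPKM. Tpx2, a spindle assembly factor, stood at 19.0, 15.4 and 33.8 FPKM against 5.70, 6.93 and 2.55 FPKM, with no overlap. The separation shown by Cd86 and Tpx2 was seen in 2.62% of all genes tested. Hmmr, a spindle protein, was higher in every pair, at 8.06, 12.1 and 1.06 FPKM in Ifnar1KO against 5.41, 7.89 and 0 FPKM in Sle1b.

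Genes of antibody diversification and DNA repair were lower in all 3 batches in 7 of 26 cases (26.9%) and higher in 0. All genes tested had 16.2% and 3.67%. Rev1, a translesion polymerase used in somatic hypermutation, stood at 30.9, 48.1 and 10.2 FPKM in Sle1b and 6.07, 22.4 and 0 FPKM in Ifnar1KO. Its fitted log2 difference was -2.24 (SE 0.67, limma adjusted p = 0.894). Xrcc6, the Ku70 subunit of end joining, stood at 4.98, 5.09 and 1.05 FPKM against 0.465, 0.602 and 0 FPKM, and it passed the filter through the Sle1b libraries alone. With batches 1 and 2 alone, 11 of 27 genes of this list (40.7%) were lower in both, beside 32.8% of all genes, and 4 were higher, beside 16.4%.

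Of the 11 immunoglobulin constant genes tested, 3 (27.3%) were lower and 1 (9.09%) higher in all 3 batches, beside 16.2% and 3.67% of all genes. Ighg2c, the IgG2c heavy chain gene on chr12:113284259-113293501, stood at 514, 243 and 8.64 FPKM in Sle1b and 206, 187 and 1.65 FPKM in Ifnar1KO. It was lower in every pair with overlap between groups, and its fitted log2 difference was -1.18 (SE 0.59). Ighg2b stood at 230, 198 and 3.44 FPKM against 109, 153 and 2.37 FPKM. Ighg1 was higher in every pair, with 33.0, 71.0 and 18.9 FPKM in Ifnar1KO against 23.3, 45.8 and 0 FPKM in Sle1b. The IgG genes are close copies of each other, and reads can be split between them.

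Plasma cell and secretory genes were lower in all 3 batches in 3 of 20 cases and higher in 0. Xbp1, the driver of the secretory programme, stood at 7.90, 11.5 and 7.31 FPKM in Sle1b against 4.59, 22.9 and 0 FPKM in Ifnar1KO. Class II presentation genes were lower in all 3 batches in 4 of 13 cases, and the pairs of batches 1 and 2 were close for the most abundant: Cd74, the invariant chain, stood at 875 and 631 FPKM in Sle1b and 781 and 620 FPKM in Ifnar1KO. Genes of T-bet-associated B cells, a population linked to autoimmunity, were lower in all 3 batches in 3 of 16 cases and higher in 0. B cell receptor signalling genes (2 of 25 lower), Myc-associated growth genes (3 of 20) and oxidative phosphorylation genes (3 of 24) stayed under the background share of 16.2%, each with 0 higher. None of 10 B cell identity genes had 1 direction in all 3 batches.

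In batches 1 and 2 alone, where 32.8% of all genes were lower in both and 16.4% higher, class II presentation genes were lower in both in 8 of 13 cases and higher in 3. Receptor and signalling genes were lower in both in 6 of 15 cases and higher in 2, and interferon regulatory factors in 2 of 10 and 1. Dark zone genes gave 6 of 14 lower and 2 higher, light zone genes 9 of 23 and 4, and cell cycle genes 16 of 48 and 10. Immunoglobulin constant genes gave 5 of 11 lower and 1 higher, plasma cell and secretory genes 7 of 20 and 3, and T-bet-associated genes 6 of 16 and 2. B cell receptor signalling genes gave 8 of 25 and 2, Myc-associated genes 5 of 21 and 2, oxidative phosphorylation genes 5 of 25 and 5, and B cell identity genes 2 of 10 and 1.

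**Figure D3:**
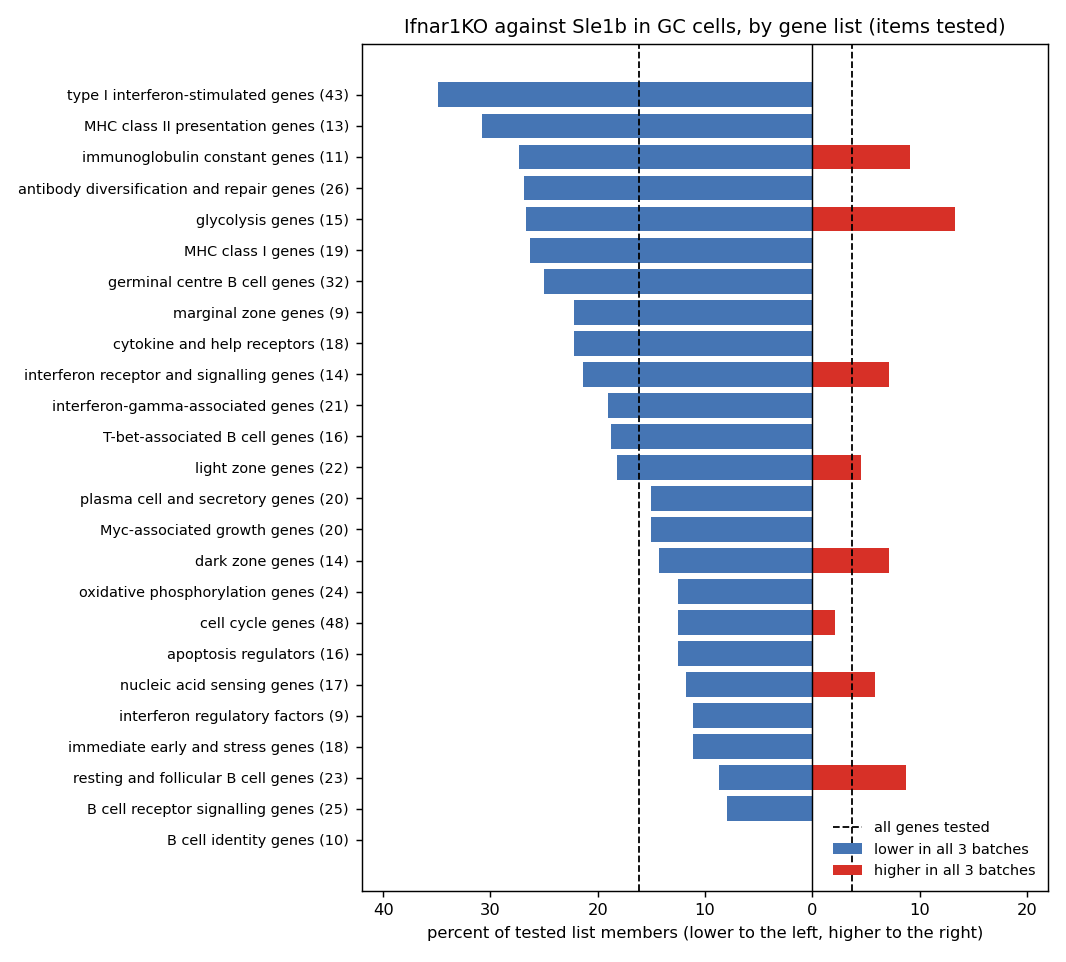
Percent of the tested members of each gene list that were lower (blue, to the left) or higher (red, to the right) in Ifnar1KO in all 3 GC pairs, for lists with at least 9 items tested, with the shares of all genes tested as dashed lines. Type I interferon-stimulated genes have the longest lower bar, 34.9%, against 16.2% of all genes tested.

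Over the whole transcriptome, the genes with the most separated pairs were not mainly interferon-stimulated. Ranked by the smallest of the 3 within-batch differences, the 12 lower genes were Plcxd2, Pde8a, Isg20, Tmbim4, Thap3, Nprl3, Fuk, Cnppd1, RP24-567O8.3, Gtpbp10, Gm37598 and Dguok. Plcxd2, a predicted phosphoinositide phospholipase gene on chr16:45746243-46010218, stood at 19.4, 112 and 48.7 FPKM in Sle1b and 0.822, 10.6 and 0.387 FPKM in Ifnar1KO. All Sle1b values lay above all Ifnar1KO values, and the fitted log2 difference was -3.98 (SE 0.65, limma adjusted p = 0.832). Such a separation towards lower values was seen in 2.62% of all genes tested, and Plcxd2 was picked for its separated pairs. Tmbim4, a membrane protein gene of the Bax inhibitor family, stood at 36.9, 45.1 and 23 FPKM against 5.20, 0 and 0 FPKM. Pde8a, a cyclic AMP phosphodiesterase, stood at 12, 7.54 and 6.73 FPKM against 0, 0.107 and 0 FPKM. Pde8a, Thap3, Fuk, RP24-567O8.3, Gm37598 and Dguok reached 1 FPKM in the Sle1b libraries alone, so the level filter fixes their separation. Leaving out batch 3, Plcxd2, Tmbim4, Isg20 and Oas1b had adjusted p between 0.000165 and 0.0404 in limma, among 43 genes called, and refiltering on batches 1 and 2 left 0 called.

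The 12 higher genes were Yipf1, Rnase13, Gm14542, Pigc, Ypel1, Gm13151, Limk1, Gm23251, 2610305D13Rik, Pgap2, RP23-349J3.6 and RP23-175A22.1. Yipf1, a Golgi membrane protein gene, stood at 5.13, 38.6 and 68.0 FPKM in Ifnar1KO and 0, 4.35 and 9.75 FPKM in Sle1b. Pigc, an enzyme of glycosylphosphatidylinositol anchor synthesis, stood at 4.53, 7.12 and 13.5 FPKM against 0.473, 0.866 and 0 FPKM, and was among 13 genes that passed the filter through the Ifnar1KO libraries alone. So were Gm14542, 2610305D13Rik and RP23-175A22.1, and the filter fixes the separation of each. Several of the others are predicted or non-coding genes with values near 0 in Sle1b. Such low values in Sle1b are worth few reads each.

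**Figure D4:**
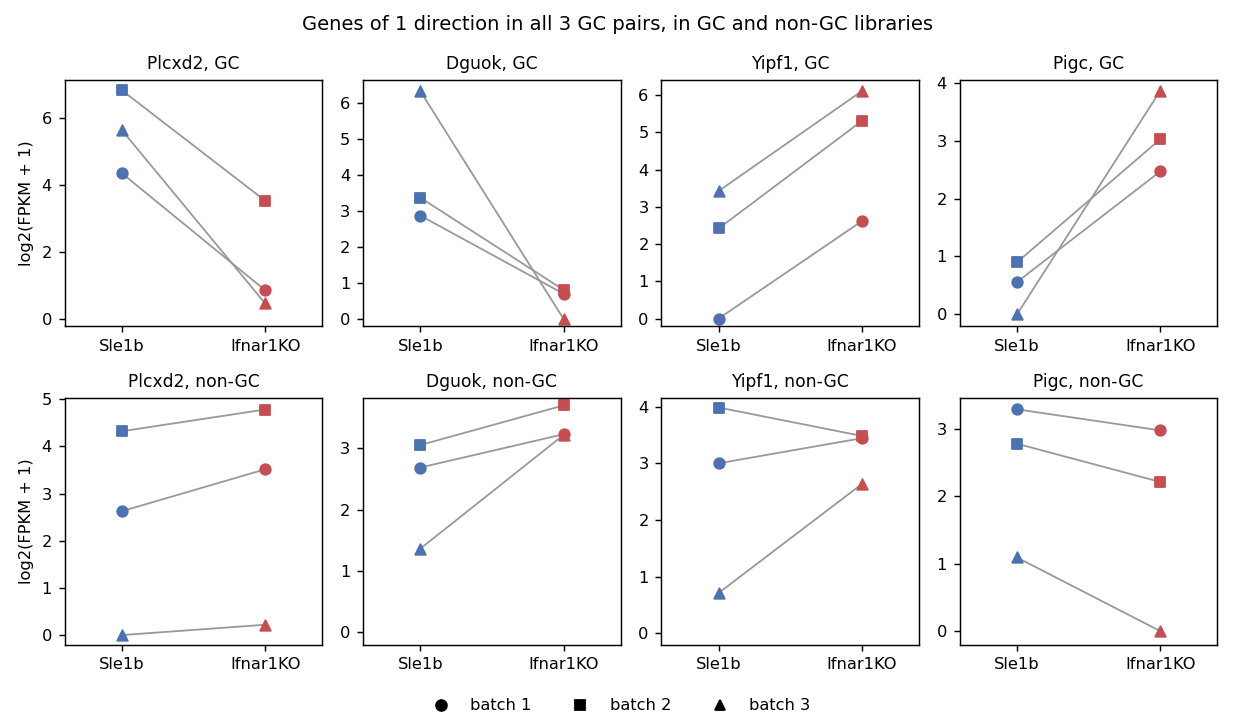
Level of 4 genes of 1 direction in all 3 GC pairs, as log2(FPKM + 1), in GC (top) and non-GC (bottom) libraries of Sle1b (blue) and Ifnar1KO (red), with a grey line joining the libraries of a batch. Plcxd2 and Dguok are lower in Ifnar1KO in GC cells and higher in non-GC cells in every batch, and Pigc shows the reverse.

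Non-GC B cells of the same batches offered a comparison of the genotype difference in another population. Of 50 type I interferon-stimulated genes passing the filter there, 25 (50%) were lower in all 3 batches and 0 higher, against 10.6% and 10.1% of the 11481 genes that passed. The medians of the 43 genes tested in GC cells were -0.49, -0.76 and -0.39 in non-GC cells, beside -1.03, -0.75 and -0.29 in GC cells. The backgrounds were unlike. All genes tested in GC cells had medians of 0.038, 0.024 and 0.000 in non-GC cells, beside -0.281, -0.099 and -0.065 in GC cells. The interaction of genotype and cell type was called for 0 of 10108 genes (0%) in limma, with a smallest adjusted p of 0.918. In the same limma fit 480 genes had an unadjusted p under 0.05, again close to a share of 0.05. A difference in response between the populations was thus not detectable gene by gene.

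Single genes of the list nonetheless had unlike values. Xaf1, an interferon-induced regulator of apoptosis, stood at 31.6, 32.0 and 2.62 FPKM in Sle1b and 2.94, 0.788 and 0.712 FPKM in Ifnar1KO among non-GC cells, but at 0.0877, 5.17 and 9.03 FPKM against 0.437, 2.35 and 3.88 FPKM among GC cells. Ly6a, the stem cell antigen Sca-1, stood at 350, 142 and 21.1 FPKM against 67.1, 13.7 and 3.58 FPKM in non-GC cells, and at 62.9, 45.0 and 18.9 FPKM against 14.6, 24.2 and 36.6 FPKM in GC cells. Isg20 was more separated in GC cells, with fitted log2 differences of -3.20 (SE 0.63) there and -1.40 (SE 0.50) in non-GC cells. The limma interaction terms were 2.27 (SE 0.91) for Xaf1, 1.98 (SE 0.83) for Ly6a and -1.80 (SE 0.70) for Isg20, each with an adjusted p of 0.918.

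**Figure D5:**
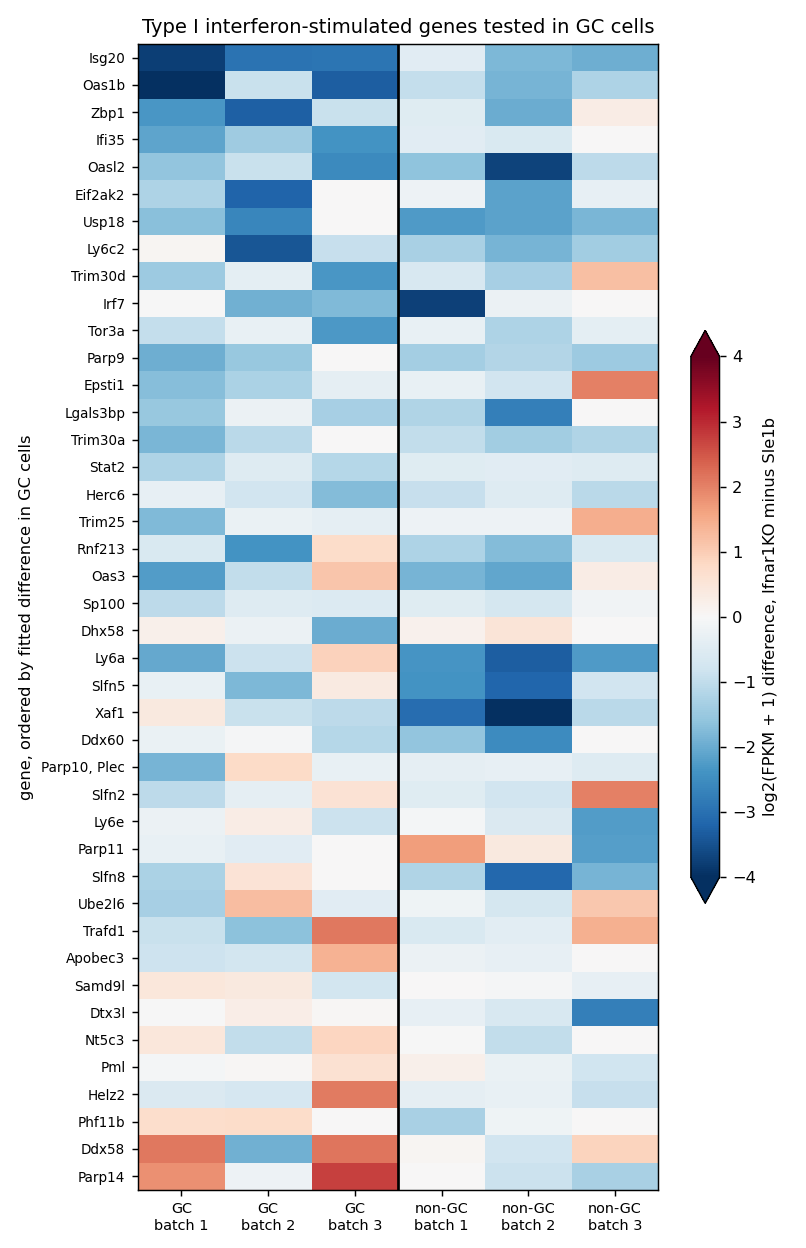
Difference in log2(FPKM + 1), Ifnar1KO minus Sle1b, for type I interferon-stimulated genes tested in GC cells (rows, ordered by the fitted difference) in each batch of GC and non-GC cells (columns), on a scale limited to -4 and 4. Isg20, Oas1b, Ifi35 and Oasl2 are blue in all 3 GC columns, and Xaf1 and Ly6a are darkest in non-GC columns.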

How the data were processed

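Splenic GC and non-GC B cells were profiled by RNA sequencing from SMARTer low-input cDNA, per the labels' protocols. FPKM values per gene were deposited by the authors in tables of 1 library against another within a batch, as the file headers show. The submitters' processing notes name TopHat2 2.0.9, Cufflinks 2.2.1, Bowtie2 2.1.0, Cuffdiff and CASAVA, and the build GRCm38 (mm10). The q-value in the authors' deposited tables compares 1 library with 1 library, not the conditions. Strand-specific counting is not given in the sources used here, so a gene and one that overlaps it or runs antisense may share reads.

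From 6 tables, 45241 named loci gave 43613 items, because gene symbols sharing a locus were merged; 9 items with a failed estimate were dropped and 461263 unnamed loci were used only to estimate depth. Genes with at least 1 FPKM in 3 of the 6 GC libraries were fitted as log2(FPKM + 1) with limma 3.58.1 (R 4.3.3), with batch and genotype as terms and a mean trend, and p-values were adjusted by Benjamini-Hochberg. The fit had 2 residual degrees of freedom. A fold on this scale understates the change of low genes. The interaction used all 12 libraries with the table as a block. Pairing comes from the batch names of the tables. Deviations from the group means of same-batch libraries correlated at 0.34, 0.49 and 0.57 in batches 1, 2 and 3. Those means include batch 3, where both GC libraries listed many tested genes at 0. Mismatched pairs were not compared, so the correlations do not check the pairing. The fits were also run on simulated data with even noise and large known changes in genes detected in all 6 GC libraries. Those settings are easier than the real data, so the run does not show how the fits perform here. Depth came from the spacing of low values at loci of 800 to 2500 bp, taking 180 bp off each length; all low values up to 5.5 reads were whole multiples within 0.1 reads.

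The 31 gene lists and the genes named were chosen with earlier results of these data known. Named were Ifnar1; members of the interferon, receptor, regulatory factor and germinal centre lists; up to 4 members of each other list with the largest mean difference among those of 1 direction in all 3 batches; any gene past the threshold; the 12 higher and 12 lower genes whose smallest within-batch difference was largest; 8 each likewise in batches 1 and 2; genes of 1 direction within 5 Mb of Ifnar1; and 4 promoters by the most negative difference. Lyz2, Cd3e, Ms4a1, Xbp1, Lrp1b and the genes shared by the authors' tables were added after their values were seen. Alternatives were other pseudocounts, filters, centring, fits without a block or trend, and leaving out each batch. A few list members are counted but not reported here by name.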

Additional observations from a re-analysis of the deposited data

Results flagged for a closer look

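Plcxd2 was lower in Ifnar1KO in all 3 GC pairs and higher in all 3 non-GC pairs. Its non-GC values were 5.18, 19.0 and 0 FPKM in Sle1b and 10.4, 26.5 and 0.164 FPKM in Ifnar1KO. The GC difference minus the non-GC difference was -4.50 on the log2 scale (SE 0.73), with an adjusted p of 0.918 in limma.

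Dguok, a mitochondrial nucleoside kinase, also had opposite directions in the 2 populations. It stood at 6.31, 9.32 and 79.4 FPKM in Sle1b and 0.622, 0.748 and 0 FPKM in Ifnar1KO among GC cells, and at 5.44, 7.30 and 1.57 FPKM against 8.38, 12 and 8.29 FPKM among non-GC cells. The difference of the differences was -4.70 (SE 1.10), with an adjusted p of 0.918 in limma.

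Pigc was higher in all 3 GC pairs and lower in all 3 non-GC pairs, with 8.79, 5.87 and 1.13 FPKM in Sle1b and 6.88, 3.64 and 0 FPKM in Ifnar1KO among non-GC cells. The difference of the differences was 3.29 (SE 0.74), with an adjusted p of 0.918 in limma. These genes were picked for separated GC pairs, so their GC direction is fixed by that choice. Dguok also passed the filter through the Sle1b libraries alone, and Pigc through the Ifnar1KO libraries alone.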

How the results depend on the processing

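The count of 0 genes called between genotypes in GC cells held with pseudocounts of 0.1 and 5 FPKM, with no filter, with a filter at 5 FPKM, after centring, without a trend, with all 12 libraries, and in batches 1 and 2 with the filter redone. In those limma fits, which tested 4896 to 23286 genes, between 222 and 863 genes had an unadjusted p under 0.05. Without the replicate block it was also 0, with 62 genes at an unadjusted p under 0.05. Leaving out each batch in turn gave 0 to 43 genes. Without batch 2 only Lrp1b was called, which was higher in Ifnar1KO, and without batch 3 there were 21 higher and 22 lower, in a fit whose prior degrees of freedom went from 7.18 to 565. The interaction was called for 0 genes in all its alternatives, with 48 genes at an unadjusted p under 0.05 without the block and 204 to 724 in the others.

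The median fitted difference of interferon-stimulated genes was -0.68 and stayed between -0.40 (pseudocount 5 FPKM) and -0.87. The share of these genes lower in every batch used, an alternative set chosen after seeing the data, was 41.9% to 67.4% when 1 batch was left out and 66% in batches 1 and 2 with the filter redone, since fewer batches have to share a direction. All genes tested had 26.3% to 32.6% and 32.8% in the same settings. For Ifnar1 the difference ranged from -1.26 to 0.62 when 1 batch was left out, turning positive without batch 3, and was 0.62 in batches 1 and 2 with the filter redone. Of 418 combinations of 36 named genes and a setting, 412 kept direction and side of the threshold. Most of these genes had 1 direction in all 3 batches, so leaving out a batch could not turn it. None passed the threshold in the main fit, so keeping its side meant staying uncalled. The count is therefore no check of the named genes. Genes with values near 1 FPKM rest on few reads, which limits what a value of 0 shows.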

Other observations

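Around Ifnar1 itself, 34 other items within 5 Mb on chromosome 16 were tested in GC cells. Of these, 6 (17.6%) were lower in all 3 batches and 2 (5.88%) higher, beside 16.2% and 3.67% of all genes. Sod1, the cytosolic superoxide dismutase, stood at 57.2, 48.0 and 0.294 FPKM in Sle1b and 27.6, 14.1 and 0 FPKM in Ifnar1KO. Runx1, a transcription factor of blood cells, was nearly equal in batches 1 and 2, at 17.0 and 62.9 FPKM against 16.6 and 59.2 FPKM. Synj1, a phosphoinositide phosphatase, was higher in each pair, at 9.37, 19.6 and 0.233 FPKM in Ifnar1KO against 1.90, 6.72 and 0 FPKM in Sle1b.

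Glycolysis genes held members of both directions. Of 15 tested, 4 (26.7%) were lower in all 3 batches and 2 (13.3%) higher, beside 16.2% and 3.67% of all genes. Slc2a3, a glucose transporter, stood at 1.85, 5.08 and 10.7 FPKM in Sle1b against 0, 0.949 and 0 FPKM in Ifnar1KO, passing the filter through the Sle1b libraries alone, and Gpi1, the glucose phosphate isomerase, at 16.0, 16.4 and 3.27 FPKM against 4.19, 5.15 and 0 FPKM. In batches 1 and 2 alone 6 of 16 were lower in both and 4 higher. Among apoptosis regulators 2 of 16 (12.5%) were lower in all 3 batches, and in batches 1 and 2 alone 4 of 16 were lower in both and 3 higher. Among all genes 32.8% were lower in both of these batches and 16.4% higher. Cflar, an inhibitor of caspase 8, stood at 28.4, 103 and 11.3 FPKM against 17.0, 36.4 and 1.81 FPKM. Zfp318, which sets IgD splicing in resting B cells, stood at 12.3, 36.5 and 15.7 FPKM against 5.32, 21.6 and 0 FPKM.

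In batches 1 and 2 alone, the 8 lower genes with the most separated pairs were Gm24336, AC125099.2, Igkv6-13, Gm13786, Mxd3, Plcxd2, Ifi27 and Babam1. All but Plcxd2 were listed at 0 in both Ifnar1KO libraries. They passed the redone filter through the Sle1b libraries alone, which fixes their direction. Ifi27, an interferon-induced mitochondrial protein, stood at 8.69 and 8.68 FPKM in Sle1b and was listed at 0 in both Ifnar1KO libraries. Its non-GC values in the same batches were 27.1 and 37.7 FPKM against 0.493 and 11.2 FPKM. Mxd3, a Max partner of dividing cells, stood at 16.7 and 10.6 FPKM in Sle1b and was listed at 0 in Ifnar1KO. The 8 higher genes were Gm28900, Adap2, Spats1, Gm17096, Rnase13, Rcl1, Kptn and AI481877. All but Gm17096 stayed under 1 FPKM in the Sle1b libraries of these batches, so the redone filter fixes their direction as well.

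The authors' deposited tables gave 56 lower and 17 higher genes with a q-value under 0.05 among 8237 in batch 1, 33 and 30 among 8496 in batch 2, and 360 and 110 among 4364 in batch 3. In the authors' deposited tables, 11 tested items were lower with such a q-value in at least 2 batches and 3 were higher, the latter being Folr1, Pcbp4 and Use1. Of the interferon-stimulated genes, the authors' deposited tables gave such a q-value to 1 in batch 1 (Oas1b, lower, q-value 0.0105), to 0 in batch 2, and to 1 lower and 1 higher gene in batch 3.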
